A study of Mus musculus with 12 samples.

Results

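The colony-stimulating factors and their receptors were followed as 6 genes, Csf1, Csf2, Csf3, Csf1r, Csf2rb and Csf3r, of the 770 genes on the nCounter mouse PanCancer Immune Profiling Panel. They were picked by name as a family, with earlier results of these data known, and each was tested. The panel counts a barcoded probe for each transcript. It was hybridized with RNA from 12 A20 tumors, which arise from a Balb/c B-cell lymphoma line implanted subcutaneously in female Balb/c mice bought at 7 to 8 weeks of age. About 7 days later 4 mice began intratumoral injections of PBS, 4 of the stable squalene emulsion alone (SE, 2%) and 4 of GLA-SE, which is 10 µg of the synthetic TLR4 agonist glucopyranosyl lipid A in 50 µl of 2% SE and is called G100 in the study. There were 3 injections on alternate days, and each tumor, from 1 mouse, was taken 2 h after the last. All 3 groups therefore share the same line, strain and injection schedule, though an injection volume was stated for GLA-SE only. The host keeps its own leukocytes and stroma, so a tumor sample mixes lymphoma and host RNA.

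Colony-stimulating factors are secreted proteins that keep myeloid cells alive and drive their growth and maturation. CSF1 (M-CSF) acts on monocytes and macrophages through the receptor tyrosine kinase CSF1R, for which IL-34 is a further ligand. CSF2 (GM-CSF) acts on granulocytes, macrophages and dendritic cells through an alpha chain and the signalling chain CSF2RB, which the receptors of IL-3 and IL-5 also use, and CSF3 (G-CSF) acts on neutrophils and their precursors through CSF3R. Fibroblasts, endothelium, T cells and macrophages are known sources of the ligands, and toll-like receptor stimulation is a textbook inducer of Csf2 and Csf3. Mice carry a close copy of Csf2rb, Csf2rb2, and whether the probe separates them was not tested.

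Transcription of cytokine genes after TLR4 stimulation is known to pass through NF-κB, so the sequence ahead of the ligand genes is shown next. RefSeq promoters (GRCm38.p6) matched Csf1 and Csf2, 2 of the 3 ligands, and the 250 bases before each annotated start are given 5′ to 3′ on the gene's strand, the minus strand in both. Capitals mark a match to the NF-κB motif, searched on both strands as GGG, then any 2 bases, then TTTCC. The windows are chr3:107760470-107760719 for Csf1 and chr11:54249900-54250149 for Csf2.
Csf1: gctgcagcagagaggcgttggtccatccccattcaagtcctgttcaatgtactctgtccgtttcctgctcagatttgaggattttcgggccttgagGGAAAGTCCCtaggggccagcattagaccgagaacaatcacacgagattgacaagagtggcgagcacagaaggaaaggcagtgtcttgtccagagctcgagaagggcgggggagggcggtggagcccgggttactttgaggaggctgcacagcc
Csf2: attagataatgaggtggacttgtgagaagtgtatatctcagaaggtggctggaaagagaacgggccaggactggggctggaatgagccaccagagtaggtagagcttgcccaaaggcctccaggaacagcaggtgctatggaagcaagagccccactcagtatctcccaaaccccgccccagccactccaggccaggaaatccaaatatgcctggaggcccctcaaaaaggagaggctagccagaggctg
The Csf1 window held 1 match, GGAAAGTCCC, on the strand opposite the gene, 154 to 145 bases ahead of the start. The Csf2 window held no match to this pattern. The motif occurred in 1.41% of 32851 promoter windows of the same length. Neither window held the AP-1 motif TGANTCA (6.75% of windows) or the PU.1 core GAGGAA on either strand (23.3%). These matches describe the letters only, and no binding was measured here. A site spelled otherwise, or lying outside the 250 bases, would not be found by this search.

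The total count was 810260 to 1612415 per tumor. Counts below are normalized, that is, the deposited counts divided by a size factor, each tumor's geometric mean of reference genes relative to the other tumors, with 17 of the panel's 20 kept by the geNorm procedure over all 12 tumors. The 20 reference genes had geometric means of 1869 to 2357 counts in PBS tumors, 1716 to 1883 in GLA-SE tumors and 959 to 2587 in SE tumors, where the lowest was SE replicate 4. B-cell markers were present at similar levels in every tumor, with a mean log2(normalized count + 1) over 7 genes of 9.72 to 10.1. Fold changes are on the log2 scale, ± the standard error of the fit. They and the adjusted p come from edgeR's quasi-likelihood test of 4 tumors against 4, Benjamini-Hochberg adjusted across the 750 genes that are not reference genes. In such bulk samples more cells of a type and more RNA per cell cannot be told apart.

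GLA-SE tumors had more of 5 of the 6 transcripts than PBS tumors. Both genes of the CSF1 axis rose about 3-fold, Csf2rb nearly 4-fold, and Csf3 and Csf3r between 4- and 5-fold, whereas Csf2 did not pass the test. The 5 genes had an adjusted p under 0.05 and none of the 6 was lower. This share has to be read against the panel, of which 68% of the tested genes were called higher and 0.533% lower (68.5% in all). On the log2 scale the median of the 6 genes was 1.76 and that of the 750 was 0.89. For the same 5 genes the groups did not overlap in normalized count, as for 63.6% of the panel, nor in the deposited count before any scaling, as for 44.7% of the panel. The direction of the panel depends on the reference genes: 510 genes were higher and 4 lower with them, 148 and 168 with TMM scaling, and 61 and 307 when each tumor was scaled to the panel's median.

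**Figure D1:**
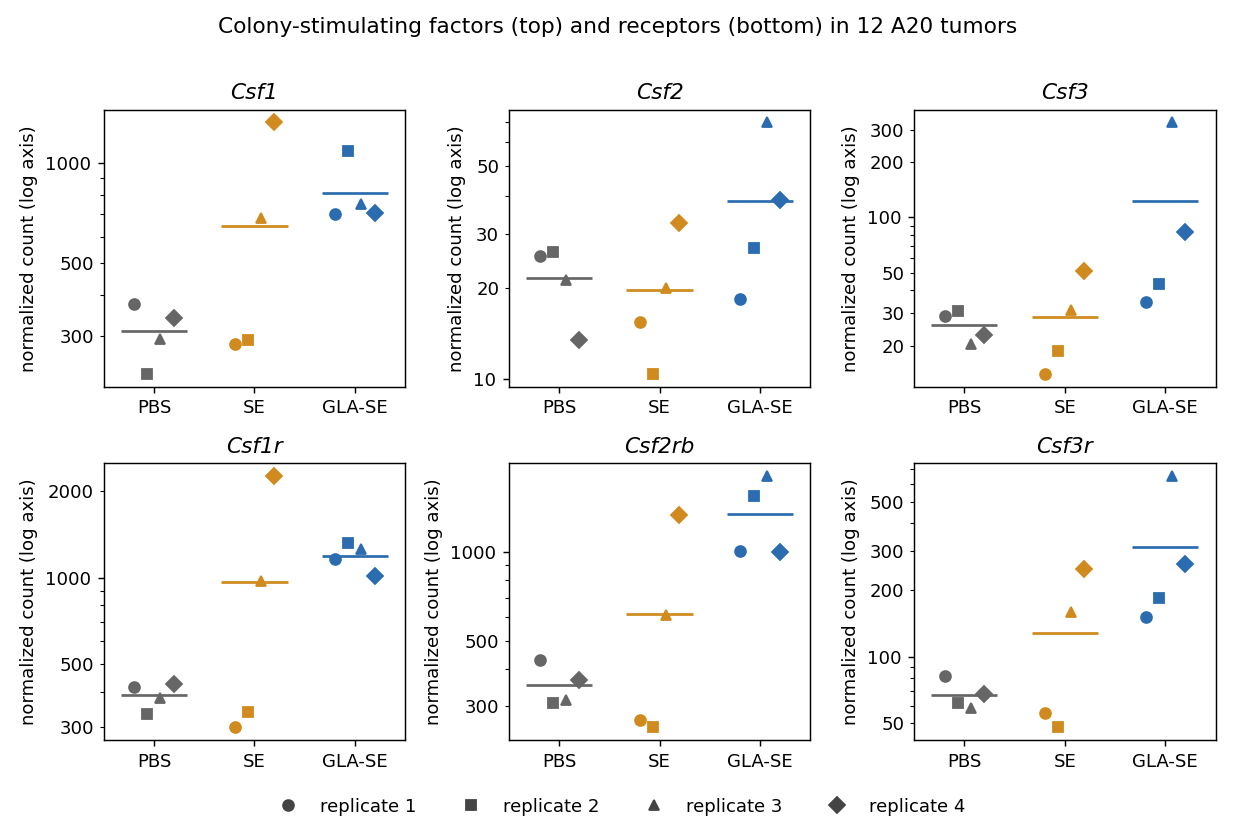
Normalized counts (log axis, a different range in each panel) of the 3 ligands (top) and 3 receptors (bottom) in PBS, SE and GLA-SE tumors, 1 symbol per tumor with its shape giving the replicate and the bar the group mean. For Csf1, Csf1r, Csf2rb and Csf3r every GLA-SE tumor lies clearly above every PBS tumor, for Csf3 the gap is narrow (34.7 against 30.9), and SE replicates 3 and 4 lie apart from SE replicates 1 and 2.

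Among the ligands, Csf1, the macrophage growth factor, had 375, 230.01, 294 and 339.9 normalized counts in PBS replicates 1 to 4. In GLA-SE tumors it had 701, 1090.3, 751 and 706. Every GLA-SE tumor lay above the highest PBS tumor, and GLA-SE replicate 2 was the highest. The difference came to 1.38 ± 0.21 (2.61-fold, edgeR adjusted p = 0.000704), and with each tumor left out it was 1.21 to 1.49.

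Csf3, the granulocyte growth factor, had 29.2, 30.9, 20.4 and 23.0 normalized counts in the PBS tumors. In GLA-SE tumors it had 34.7, 43.6, 328 and 83.4. The groups did not overlap, although GLA-SE replicate 1 was only slightly above the highest PBS tumor and GLA-SE replicate 3 was nearly 4 times the next. In GLA-SE replicate 1 the deposited count was 36 (95% exact Poisson interval 25.2 to 49.8) and in PBS replicate 2 it was 33 (22.7 to 46.3), so these tumors could not be told apart by counting error, which is all that these intervals cover. The difference came to 2.24 ± 0.71 (4.71-fold, edgeR adjusted p = 0.0208). It was 1.06 without GLA-SE replicate 3 (adjusted p = 0.0231), and the call was lost without PBS replicate 3 (adjusted p = 0.0553) or PBS replicate 4 (0.0525).

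Csf2 was the lowest of the 6 probes, near the 20 counts that the study's methods use as a threshold, with 25.4, 26.2, 21.2 and 13.5 normalized counts in PBS tumors. It had 18.3, 27.0, 69.6 and 38.6 in GLA-SE tumors. The groups overlapped, and GLA-SE replicate 3 was again the highest. The difference of 0.82 ± 0.42 had an edgeR adjusted p of 0.107. Without GLA-SE replicate 3 it was 0.37, and without GLA-SE replicate 1 it was 1.06, with an adjusted p of 0.0367.

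Among the receptors, Csf1r, carried by monocytes and macrophages, had 414, 333, 379 and 426 normalized counts in PBS tumors. In GLA-SE tumors it had 1160.3, 1323, 1262 and 1016. It was the most even of the 6 within these groups, with a coefficient of variation of 10.8% in PBS and 11.3% in GLA-SE tumors. The difference came to 1.61 ± 0.13 (3.06-fold, edgeR adjusted p = 0.000104), and 1.55 to 1.68 with each tumor left out.

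Csf2rb, the shared signalling chain, had 429.6, 307, 315 and 367 normalized counts in PBS tumors. In GLA-SE tumors it had 1009.9, 1543, 1808 and 997. The lowest GLA-SE tumor had over 2 times the count of the highest PBS tumor. The difference came to 1.91 ± 0.23 (3.77-fold, edgeR adjusted p = 0.000306), and 1.73 to 2.03 with each tumor left out. Csf2rb was also the gene of the 6 that stayed called when each tumor was scaled to the panel's median, at 0.61 (edgeR adjusted p = 0.006).

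Csf3r, found on neutrophils, had 82.0, 61.7, 58.4 and 67.5 normalized counts in PBS tumors. In GLA-SE tumors it had 150.3, 185, 654 and 262. As for its ligand Csf3, GLA-SE replicate 3 stood highest and GLA-SE replicate 4 next. The difference came to 2.21 ± 0.46 (4.63-fold, edgeR adjusted p = 0.00357), which was 1.56 without GLA-SE replicate 3, and with each tumor left out the gene kept an adjusted p under 0.05.

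**Figure D2:**
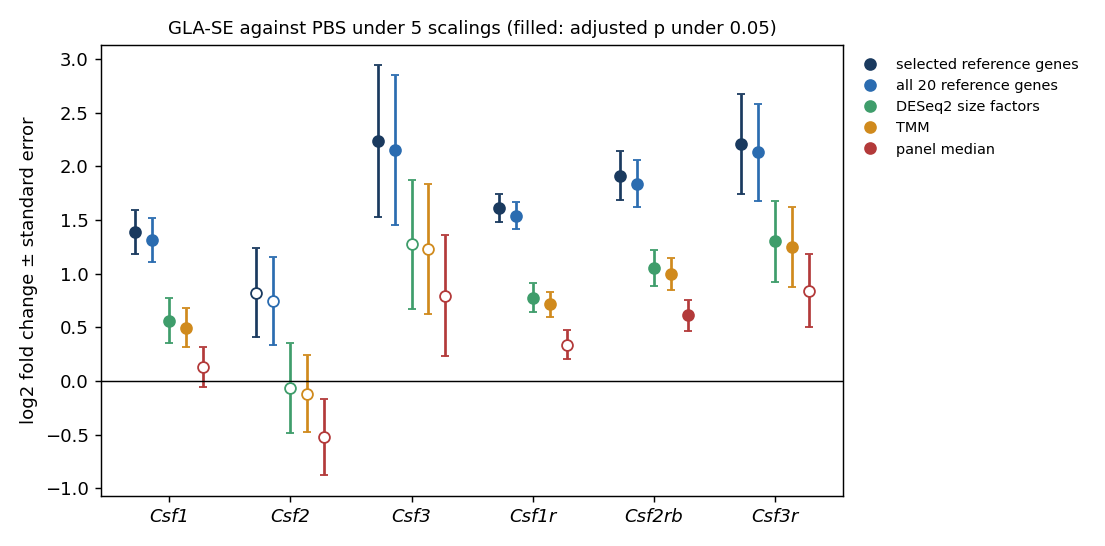
Log2 fold change (± standard error) of each gene in GLA-SE against PBS tumors, n = 4 each, under 5 scalings, with filled points for an adjusted p under 0.05. All 6 genes shift down together from the reference genes to the panel median, where Csf1 is at 0.13 and Csf2 at −0.52, while Csf2rb stays filled throughout.

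Of all 750 fold changes in this comparison, ordered from the largest, Csf3 was number 50, Csf3r 51, Csf2rb 75, Csf1r 131, Csf1 189 and Csf2 402. With TMM scaling, which put the panel's median at −0.01, the log2 fold changes were 1.25 for Csf3r, 1.00 for Csf2rb, 0.71 for Csf1r and 0.50 for Csf1, all with an edgeR adjusted p under 0.05. Csf3 was at 1.23 (adjusted p = 0.131) and Csf2 at −0.12 (adjusted p = 0.822). The 4 genes that passed were thus higher than PBS with both scalings, though Csf1 only just with TMM (adjusted p = 0.0481).

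The SE tumors split for the same genes. For Csf1r, SE replicates 1 and 2 had 299.6 and 339.5 normalized counts, below or within the PBS range, and SE replicates 3 and 4 had 971 and 2264. Csf1 had 284 and 292 in the first pair and 683 and 1329 in the second. Csf2rb had 270.2 and 254, then 611 and 1329, and Csf3r 55.5 and 47.9, then 159 and 248. SE replicates 3 and 4 thus lay above every PBS tumor for these 4 genes and SE replicates 1 and 2 did not. Csf3 had 14.0, 18.7, 31.2 and 50.9, and Csf2 15.4, 10.4, 19.985 and 32.6, both low, with deposited counts of 25 and 16 in SE replicate 4 (95% exact Poisson intervals 16.2 to 36.9 and 9.15 to 26.0).

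No member was called in SE against PBS, nor was any gene of the panel (0% by edgeR, where 147 genes, 19.6%, had an unadjusted p under 0.05, as no member had, and DESeq2 with the same size factors called 66). The differences were 1.36 ± 0.63 for Csf1r (edgeR adjusted p = 0.228), 1.10 ± 0.52 for Csf1 (0.228), 0.95 ± 0.56 for Csf3r (0.277), 0.84 ± 0.54 for Csf2rb (0.299), 0.15 ± 0.44 for Csf3 (0.808) and −0.14 ± 0.40 for Csf2 (0.801). The normalized counts of SE and PBS overlapped for all 6, whereas 8.67% of the panel had SE above PBS throughout. The panel's median was 0.56. Without SE replicate 4 the differences were 0.47 for Csf1r, 0.45 for Csf1, 0.38 for Csf3r and 0.10 for Csf2rb.

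**Figure D3:**
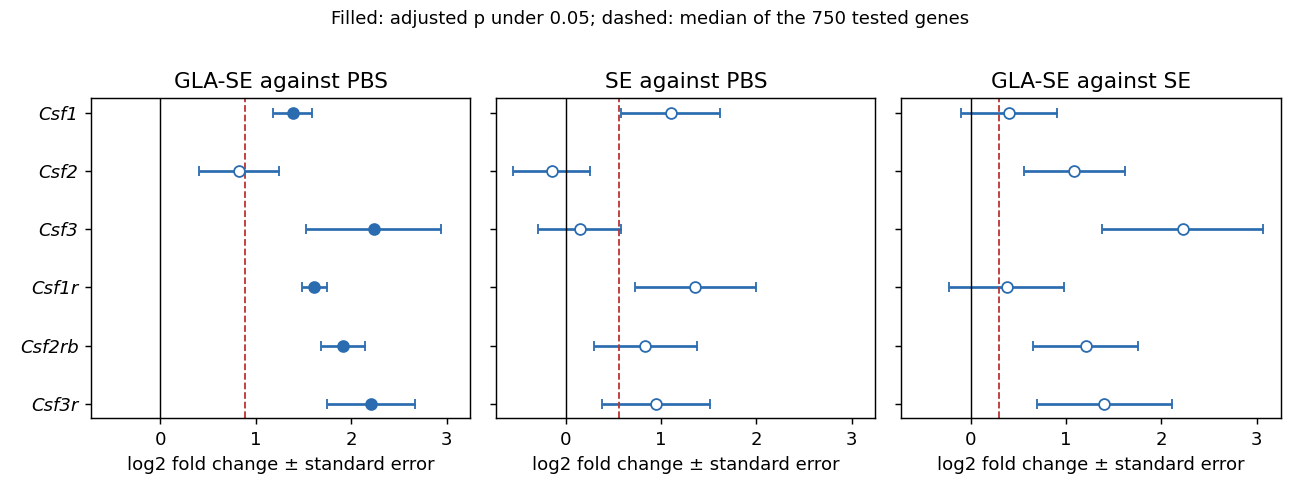
Log2 fold change (± standard error, n = 4 tumors a group) of the 6 genes in the 3 comparisons, filled where the adjusted p is under 0.05, with the median of the 750 tested genes as a dashed line. The 5 filled points are all in GLA-SE against PBS, and both comparisons with SE have wider errors for Csf1, Csf1r, Csf2rb and Csf3r, while SE against PBS has the narrower errors for Csf2 and Csf3.

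GLA-SE against SE addresses what the agonist adds to its emulsion. No member was called by edgeR, where 2.13% of the panel was, all higher, and 1 member, Csf3, had an unadjusted p under 0.05, as 20.3% of the panel did. With all 8 tumors Csf3 had the largest difference of the 6, at 2.22 ± 0.84 (edgeR adjusted p = 0.192). Csf3r followed at 1.40 ± 0.71 (0.314), then Csf2rb at 1.21 ± 0.55 (0.27), Csf2 at 1.09 ± 0.53 (0.298), Csf1 at 0.40 ± 0.50 (0.724) and Csf1r at 0.38 ± 0.61 (0.812). Both the order and these sizes rest on single tumors. Without GLA-SE replicate 3, Csf3 was at 0.99, just under Csf2rb at 1.00, and Csf3r at 0.70. Without SE replicate 4, Csf1 was at 1.02 (edgeR adjusted p = 0.0979) and Csf1r at 1.21 (0.0938). The normalized counts of the groups overlapped for all 6, though not for 14.4% of the panel. The deposited counts, which are not scaled up in SE replicate 4, did not overlap for Csf1, Csf3, Csf2rb and Csf3r, as for 24.4% of the panel. Csf3 was called by DESeq2 with the same size factors (adjusted p = 0.0311), and Csf3 and Csf2rb with its own (0.0428 and 0.0204). Without SE replicate 4 edgeR called Csf2rb (1.90, adjusted p = 0.0315), which it did not when GLA-SE replicate 3 was left out as well (1.69, adjusted p = 0.0556, a setting chosen after seeing the data). These 2 comparisons of GLA-SE share the GLA-SE tumors. The PBS tumors of SE against PBS are also in GLA-SE against PBS, and its SE tumors are also in GLA-SE against SE. The values of the 3 comparisons are therefore given side by side only.

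By mean normalized count the order was PBS, SE, GLA-SE for Csf1 (309.8 ± 62.6, 647 ± 492 and 812 ± 187, SD, n = 4), Csf1r (388 ± 41.8, 968 ± 917 and 1190.1 ± 134), Csf2rb (354 ± 56.7, 616 ± 503 and 1339.7 ± 403), Csf3r (67.4 ± 10.4, 128 ± 95.0 and 313 ± 232) and Csf3 (25.9 ± 4.95, 28.7 ± 16.5 and 122 ± 139). For Csf2 it was SE, PBS, GLA-SE (19.6 ± 9.498, 21.6 ± 5.81 and 38.4 ± 22.4). SE replicate 4 was the highest SE tumor for all 6 genes and raised the SE means. By median, Csf3 was lower in SE (25.0) than in PBS tumors (26.1). SE did not differ from either neighbour beyond the spread for any of them by edgeR, and the ends of the order differed for all but Csf2.

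Ratios within a tumor, taken on the deposited counts, do not depend on the scaling. The log2 difference of Csf1 and Csf1r, ligand and receptor, stayed between −0.77 and −0.08 in all 12 tumors, although Csf1r itself spanned 299.6 to 2264 normalized counts. After centring each gene on its mean, their profiles over the 12 tumors differed by a root mean square of 0.23 on the log2 scale, the smallest of the 15 pairs among the 6 genes. Csf3 and Csf3r differed by 0.44, and Csf2 and Csf2rb by 0.69. The difference of Csf3r and Csf1r was −2.70 to −2.34 in PBS tumors and −3.19 to −2.43 in SE tumors, and −2.95, −2.84, −0.95 and −1.95 in GLA-SE replicates 1 to 4, so the neutrophil receptor gained on the macrophage receptor in GLA-SE replicates 3 and 4 and not in the others.

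**Figure D4:**
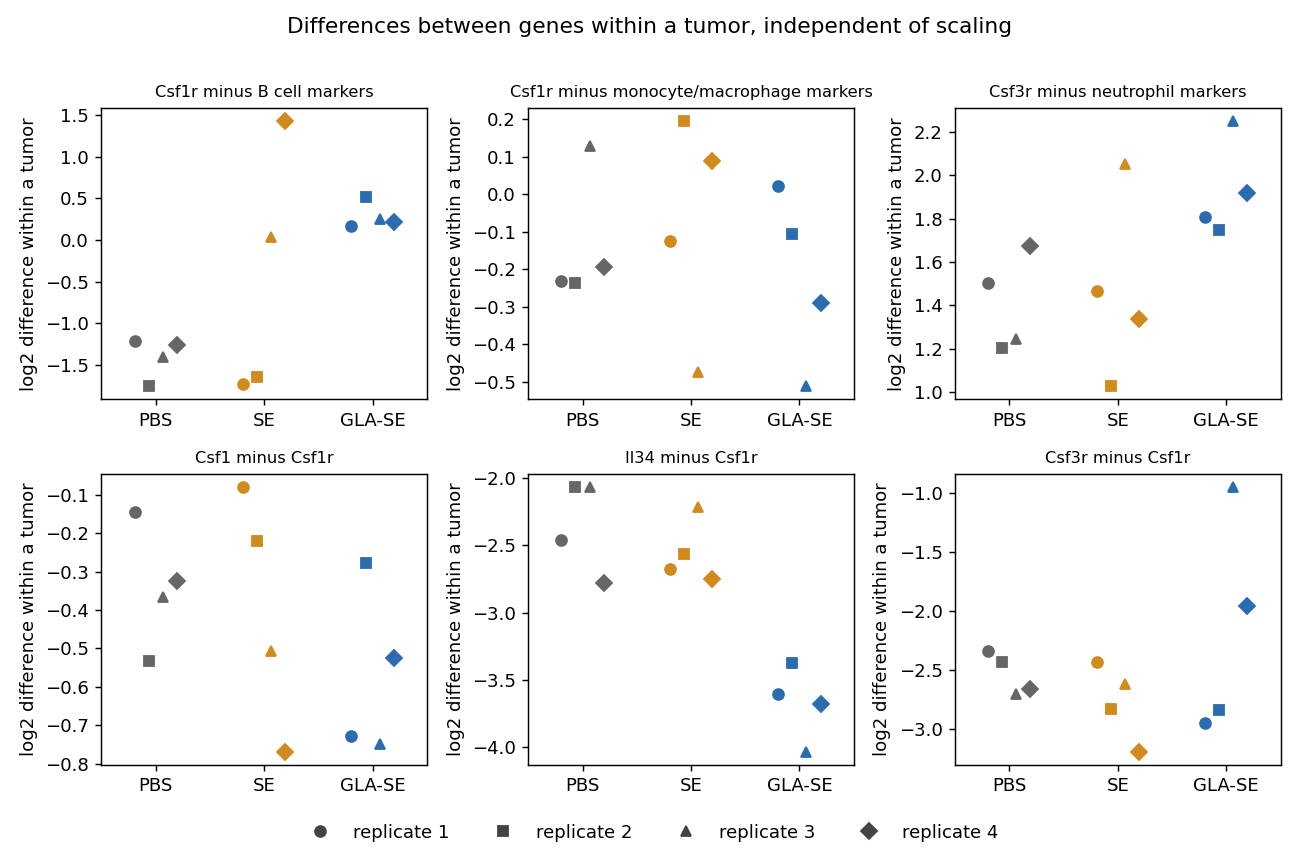
Log2 difference between 2 genes, or a gene and the mean of a marker list, within each tumor (y axis, a different range in each panel) for PBS, SE and GLA-SE tumors, with the shape giving the replicate. GLA-SE tumors lie above PBS tumors for Csf1r minus B-cell markers, below them for Il34 minus Csf1r, and overlap them for Csf1r minus monocyte and macrophage markers; for Csf3r minus neutrophil markers they lie above over the 11 markers plotted, but overlap PBS and lie lower on average over the 6 that reached 20 counts.

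Against the B-cell markers, which the lymphoma carries, Csf1r was at −1.76 to −1.22 in PBS tumors and 0.17 to 0.52 in GLA-SE tumors, with no overlap. SE replicates 1 and 2 were at −1.73 and −1.65 and SE replicates 3 and 4 at 0.04 and 1.42. Only differences between tumors are read here, since probes of different genes need not count alike. The B-cell markers had a median log2 fold change of −0.23 in GLA-SE against PBS, where the panel's was 0.89. The share of the panel that separates from them as Csf1r does was not counted. The 12 monocyte and macrophage markers were all called higher in GLA-SE against PBS, with a median log2 fold change of 1.55, from 1.24 for Cd163 to 3.69 for Cd14, and their mean log2(normalized count + 1) was 8.45 to 8.94 in PBS, 10.2 to 10.8 in GLA-SE, 8.37 and 8.23 in SE replicates 1 and 2 and 10.4 and 11.1 in SE replicates 3 and 4. Csf1r minus these markers was −0.24 to 0.13 in PBS tumors, −0.51 to 0.02 in GLA-SE tumors and −0.47 to 0.19 in SE tumors, so it did not separate the groups. Csf1 and Csf2rb minus the same markers overlapped between GLA-SE and PBS as well, with −1.26 to −0.39 against −0.77 to −0.23 for Csf1 and −0.32 to 0.12 against −0.41 to −0.14 for Csf2rb. The part of these markers in the members' values was not tested.

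For Csf3r the comparison with neutrophil markers depended on which markers were used. Of 11 markers 5 were called higher in GLA-SE against PBS and 0 lower, below the 68% of the panel, with a median log2 fold change of 0.60, also below the panel's 0.89, and S100a8, an alarmin of neutrophils and monocytes, the largest at 5.02. Mpo, of granulocyte precursors, was at −0.04. Only 6 of the 11 reached a mean of 20 normalized counts in the GLA-SE or the PBS group, and none was at 0. The markers' mean log2(normalized count + 1) was 4.51 to 4.93 in PBS tumors, 4.44 to 6.65 in SE tumors, and 5.503, 5.84, 7.15 and 6.18 in GLA-SE replicates 1 to 4, in the order of Csf3r itself. Csf3r minus these markers was 1.20 to 1.67 in PBS and 1.75 to 2.25 in GLA-SE tumors, with no overlap, and 1.03 to 2.05 in SE tumors. Over the 6 markers that reached 20 counts, a choice made after seeing the data, the direction turned: it was 0.10 to 0.62 in PBS, −0.15 to 0.22 in GLA-SE and −0.14 to 0.59 in SE tumors, all overlapping. The separation over 11 markers thus came with the 5 lowest probes, against which Csf3r was at 2.501 to 3.04 in PBS and 3.58 to 5.13 in GLA-SE tumors. No test was made of these differences.

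The other marker lists are read against the 68% of the panel that was called higher in GLA-SE against PBS. On the TMM scale every value of this comparison lies lower by about the shift of the panel's median, from 0.89 to −0.01, so list medians under 0.89 would be near or below 0 there. The 10 markers of endothelium and fibroblasts, known producers of Csf1 and Csf3, were all called higher in GLA-SE against PBS (median log2 fold change 1.05), and their mean was 7.04 to 7.80 in PBS, 8.11 to 9.17 in GLA-SE and 6.87 to 10.6 in SE tumors, highest in SE replicate 4. The shares of the smaller lists were near that share or, for dendritic cells, below it: of 6 T-cell markers 4 were higher, of 3 NK-cell markers 2, of 6 dendritic-cell markers 3 and of 5 mast cell, basophil and eosinophil markers 4, with none lower. Of 7 B-cell markers 0 were higher and 2 lower, Ms4a1 at −0.46 and Cd79b at −0.42. Their part in the members' values was not tested.

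The related cytokines and receptors of the panel share chains, ligands or target cells with the members. Of 8, 5 were higher in GLA-SE against PBS and 0 lower, a share near the 68% of the panel called higher. Their median log2 fold change was 0.56, below the panel's 0.89. Kit, the receptor of stem cell factor, was at 0.98 (edgeR adjusted p = 0.00636), Il3 at 0.93 (0.00335), its receptor chain Il3ra at 0.73 (0.0147), Il5ra at 0.63 (0.0371) and Flt3l at 0.49 (0.0231). Flt3, a receptor of dendritic-cell precursors, was at 0.27 (0.2) and Il5 at 0.31 (0.385), the latter with 7 to 14 deposited counts per tumor. Both chains that Csf2rb partners on this panel, Il3ra and Il5ra, thus passed the test with smaller fold changes than Csf2rb, and a test of that difference was not made.

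Il34, the other ligand of CSF1R, did not pass. It had 75.4, 79.5, 90.6 and 62.0 normalized counts in PBS tumors and 95.4, 128, 77.2 and 79.3 in GLA-SE tumors. The groups overlapped, at 0.30 ± 0.23 (edgeR adjusted p = 0.262). SE tumors had 46.8, 57.3, 209 and 336, so replicates 3 and 4 were again the high ones, and above every GLA-SE tumor. Il34 minus Csf1r within a tumor was −2.78 to −2.07 in PBS, −2.75 to −2.22 in SE and −4.03 to −3.37 in GLA-SE tumors. On this ratio GLA-SE lay below all other tumors, while SE and PBS tumors overlapped, SE replicates 3 and 4 included. The share of the panel with such a separation from Csf1r was not counted.

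**Figure D5:**
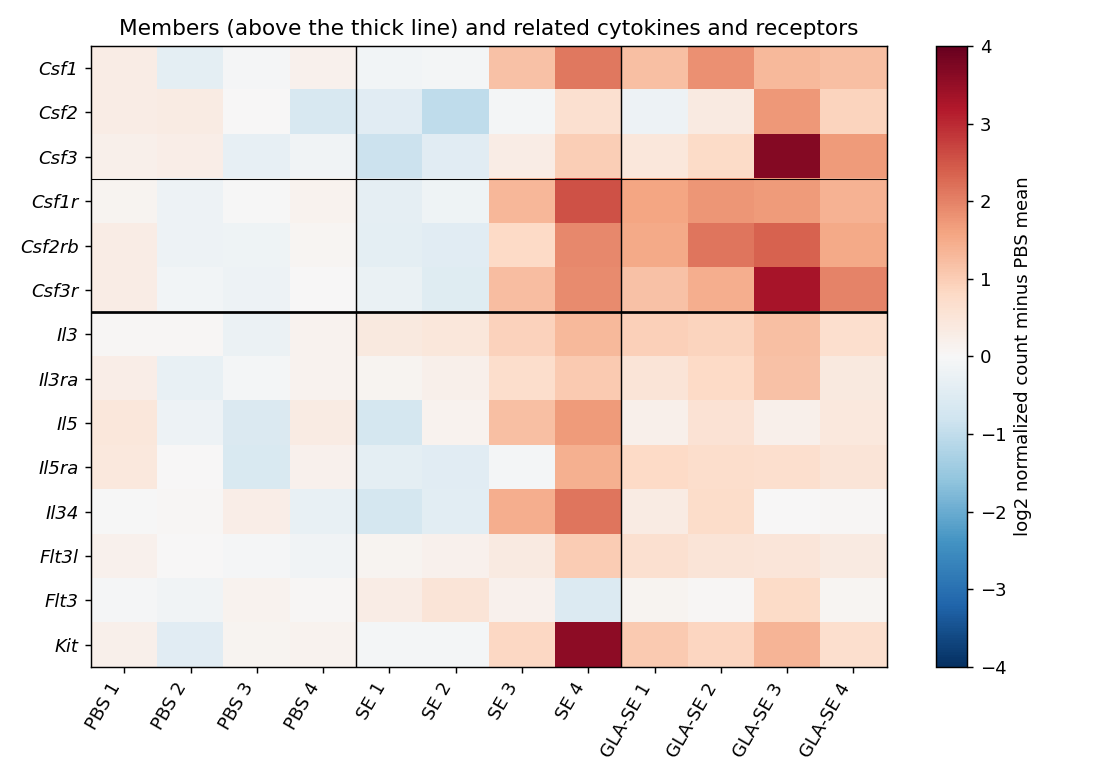
Log2 normalized count minus the PBS mean (colour) of the 6 genes, above the thick line, and 8 related cytokines and receptors, below it, with 1 column per tumor. SE replicate 4 is high for Il34 (2.14) and Kit (3.58), GLA-SE replicate 3 for Csf3 and Csf3r, and Il34 stays within 0.75 of the PBS mean in the GLA-SE tumors.

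Downstream, colony-stimulating factor receptors signal through JAK kinases, STAT5 and STAT3, PI3 kinases and further kinases, with SOCS proteins and SHIP1 (Inpp5d) as brakes. All 13 such genes were called higher in GLA-SE against PBS, where 68% of the panel was. Their median log2 fold change was 0.79, below the panel's 0.89. The largest was the feedback inhibitor Socs3 at 3.03 (edgeR adjusted p = 0.00186). Jak2, which CSF2RB binds, was at 1.43 (0.00354) and Stat5b at 0.48 (0.00869). Of 6 transcription factors of myeloid cells 5 were higher, from Cebpb, a factor of macrophages and granulocytes, at 1.39 to the early response gene Egr1 at 0.50, which did not pass (0.155). In SE against PBS and in GLA-SE against SE none of these 19 genes was called, where only 0% and 2.13% of the panel were.

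Among the 673 other genes with a mean of at least 20 normalized counts, the profiles over the 12 tumors nearest to each member, by root mean square difference of centred log2 values, are given as a description. For Csf1r they were App (0.15), Cmklr1 (0.17) and Cd63 (0.18), where the median over the genes was 0.67. For Csf1 they were Xaf1 (0.14), Nod1 (0.16) and Cd84 (0.18), with a median of 0.61. Csf1 and Csf1r thus had neighbours closer than they were to each other. For Csf2rb they were Ikbke (0.16), Il15ra (0.25) and Bcl2 (0.25), with a median of 0.71, and for Csf3r Tnfrsf1b (0.19), Arg2 (0.25) and the toll-like receptor Tlr2 (0.26), with a median of 0.80. For Csf3 they were Trem1 (0.30), an activating receptor of neutrophils and monocytes, the neutrophil chemokine Cxcl5 (0.38) and Cd80 (0.39), with a median of 0.95. For Csf2 they were Fas (0.38), Sbno2 (0.39) and Ido1 (0.39), with a median of 0.69. Its counts were near 20, so counting error adds to each of these differences.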

How the data were processed

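The authors deposited 1 table of probe counts, whole numbers for 770 genes in each of 12 tumors. The study's methods describe nSolver normalization, but the sums and the reference genes are unequal across tumors, and the values were taken as raw. The panel involves no alignment. The 20 reference genes are those that the study's table of comparisons does not list. All 6 member symbols matched GRCm38.p6 gene names.

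Reference genes were chosen by geNorm within each pair of groups, which kept 15, 15 and 12 of 20 for GLA-SE against PBS, SE against PBS and GLA-SE against SE, and over all 12 tumors (17) for printed levels. Fold changes on the pair's scale differ from that scale by −0.0044, 0.024 and 0.073 (log2). The tests used edgeR 4.0.16 (R 4.3.3) on 750 genes without a filter, at an adjusted p threshold of 0.05. Alternatives used limma 3.58.1 with a pseudocount of 10, DESeq2 1.42.0, other scalings, a filter of 20 counts in at least 4 tumors, all tumors in 1 fit, the replicate number as a block, and leaving out tumors. Fits were tested on counts simulated from the tumors' own means and spread. True log2 fold changes of 1 were recovered at 62% in GLA-SE against PBS, 12% in SE against PBS and 14% in GLA-SE against SE. At a true log2 fold change of 2 these shares were 98%, 72% and 67%. A gene not called in either comparison with SE may therefore still differ 2-fold or more. Figures were drawn with matplotlib 3.10.9.

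The members, gene lists and tests were chosen with earlier results of these data known. Named besides the members were all 8 relatives, the ends of the other lists among genes with a mean of 20, and the 3 nearest profiles; 1 list end is not reported here. Jak2, Stat5b and Cd79b were named after their values were seen. Precision is limited by 4 tumors a group and by counts near 20 for Csf2 and Csf3.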

Additional observations from a re-analysis of the deposited data

Results flagged for a closer look

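In 18 sets of 4 tumors, 6 genes in 3 groups, a tumor far from the other 3 was searched for by Dixon's ratio of normalized counts. The search found 2, where chance gives about 5% of sets, or 0.9, if values are normally distributed. Counts are skewed, and on a log scale the Csf3 value stands out less, so this rate is only a rough guide. Csf1 in GLA-SE replicate 2 had 1090.3 normalized counts, with 701 to 751 in the other GLA-SE tumors. Csf3 in GLA-SE replicate 3 had 328 normalized counts, with 34.7 to 83.4 in the others. The cause was not tested for either.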

How the results depend on the processing

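The number of the 6 genes called in GLA-SE against PBS was 5, and 1 with panel median scaling, 4 with TMM scaling, with the replicate block, with limma and with DESeq2's own size factors, 5 in the other 5 settings, and 4 to 6 with each tumor left out. In SE against PBS it was 0 in every setting run. In GLA-SE against SE it was 0, but 2 with DESeq2 and its own size factors, 1 with DESeq2 and the reference size factors, 0 to 1 with each tumor left out (1 without SE replicate 4), and 0 without GLA-SE replicate 3 and SE replicate 4. Csf3 in GLA-SE against PBS lost its call with panel median scaling, TMM scaling, the replicate block, limma, DESeq2's own size factors and without PBS replicate 3 or 4.

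Values changed sign only among results that had not passed. Csf2 in GLA-SE against PBS went to −0.52 with panel median scaling, −0.12 with TMM and −0.065 with DESeq2's own size factors. In SE against PBS, Csf3 went to −0.55 with panel median scaling, −0.48 with TMM, −0.43 with DESeq2's own size factors and −0.29 without SE replicate 4, Csf2rb to −0.049 with panel median scaling, and Csf2 to 0.069 without SE replicate 2. In GLA-SE against SE, Csf1 went to −0.12 and Csf1r to −0.015 with panel median scaling. Scaling to the panel median moved the panel's median log2 fold change from 0.89 to −0.40 in GLA-SE against PBS. It went from 0.56 to −0.037 in SE against PBS and from 0.30 to −0.46 in GLA-SE against SE. In both comparisons of GLA-SE this scaling thus took off more than the panel's own shift. With each tumor left out, Csf3 ran from −0.29 to 0.39 and Csf2 from −0.49 to 0.069 in SE against PBS. The cause of the sign changes was not tested.

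Same-numbered tumors came from different mice, and their deviations from the group means correlated at −0.25 to 0.18, over 0.1 in 1 of 4 pairs in each comparison, so the numbers were not taken to pair them. With the replicate block Csf3 in GLA-SE against PBS was at 1.63 (edgeR adjusted p = 0.0818), and the panel had 435 genes higher and 2 lower in place of 510 and 4. The panel counts higher and lower were also 253 and 0 with all 12 tumors in 1 fit. In GLA-SE against SE the 16 panel calls became 0 with the block and with panel median scaling, 3 with TMM and 69 higher and 1 lower with all 12 tumors, and 54 and 26 or 132 and 8 with DESeq2's own or the reference size factors. With each tumor left out they were 2 to 107, and 72 without both GLA-SE replicate 3 and SE replicate 4. In SE against PBS DESeq2 called 7 higher and 5 lower with its own size factors and 61 and 5 with the reference ones. With the median in place of the mean of the markers, Csf3r minus neutrophil markers in GLA-SE against PBS was 0.87 in place of 0.52, and −0.37 with the mean over the 6 markers that reached 20 counts (−0.20 in place of 0.46 in GLA-SE against SE), and Csf1r minus monocyte and macrophage markers −0.40 in place of −0.09.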

Other observations

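Kit, a growth factor receptor of mast cells and precursors, had 38.8, 38.5, 72.4 and 493 normalized counts in SE replicates 1 to 4, against 29.9 to 47.1 in PBS and 66.1 to 105 in GLA-SE tumors. The mean log2(normalized count + 1) of 5 mast cell, basophil and eosinophil markers was 4.38, 4.46, 6.07 and 7.68 in the same SE tumors. In SE replicate 4 Flt3 was the one of the 8 relatives that was lower than in any other tumor, with 334 normalized counts and 164 deposited. No test was made of these values.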
